A study of Homo sapiens with 6 samples.

Results

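A set of 10 genes of the FOXO pathway was followed in RNA from cells labelled SKM-1, a human acute myeloid leukemia (AML) line derived from myelodysplastic syndrome (MDS). They were chosen by name, 10 of the 31142 genes with a value. FOXO1, FOXO3 and FOXO4 are the transcription factors, and BCL6, CITED2, SESN3, TXNIP, BNIP3, PINK1 and CCNG2 are genes commonly listed as their targets. U2AF1, a subunit of the splicing factor that reads the end of introns, carries the S34F mutation in some patients with MDS. A lentivirus brought FLAG-tagged U2AF1, driven by a ubiquitin promoter, into the cells. The same vector carried green fluorescent protein and puromycin resistance, and stable transfectants were selected with puromycin. There were 3 S34F libraries (S34F mutant U2AF1) and 3 WT libraries (wild-type U2AF1), all taken after 96 h. Both groups were made from the same parental line, whose own U2AF1 gene was not removed. The titles and the study's account of its RNA sequencing both describe the WT libraries as cells with wild-type U2AF1. Their title prefix is also the study's abbreviation for untransfected negative controls, and the methods speak of a vehicle control. The sources thus differ in wording on whether the WT libraries carry the wild-type transgene. The study calls the RNA samples independent, in 3 pairs, and speaks of triplicates, but does not say that the libraries of a group came from separate cultures. The p-values below therefore measure the spread between libraries, which may be technical.

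FOXO proteins are set mainly by their location. When growth factors activate PI3K and AKT, AKT phosphorylates FOXO proteins, which then leave the nucleus and are held in the cytoplasm. When that input falls, they return to the nucleus and bind a short forkhead motif near genes for cell cycle arrest, stress resistance, autophagy, mitophagy and cell death. FOXO3 is known in blood for keeping stem cells quiescent and for the control of oxidative stress in red cell precursors. RNA levels show how much transcript each factor and each target has, and say nothing of where the proteins were. The study asked about FOXO3 in U2AF1-mutant cells, and the question here was whether the RNA of the factors differed between S34F and WT, and whether the targets followed FOXO3 library by library.

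The promoter windows of 3 genes are shown because they hold the full forkhead motif or, for BNIP3, an E-box, the letters bound by basic helix-loop-helix factors. The sequences are from RefSeq on GRCh38.p14, run 5′ to 3′ on the gene's strand, and cover 300 bases around the annotated start, most of them before it. Windows were found for 9 of the 10 genes. In the FOXO4 and TXNIP sequences the capitals mark GTAAACA, a forkhead motif (TGTTTAC on the other strand), which 3.42% of all 35116 such promoters hold on either strand. In the BNIP3 sequence the capitals mark CACGTG, the E-box, which 7.26% of them hold.
FOXO4 (chrX:71095601-71095900, plus strand): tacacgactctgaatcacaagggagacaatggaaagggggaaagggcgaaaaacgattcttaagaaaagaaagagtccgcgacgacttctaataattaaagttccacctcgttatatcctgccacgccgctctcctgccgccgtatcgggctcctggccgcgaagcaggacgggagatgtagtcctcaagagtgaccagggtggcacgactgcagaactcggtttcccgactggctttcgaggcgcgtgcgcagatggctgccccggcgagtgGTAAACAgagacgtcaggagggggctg
TXNIP (chr1:145996530-145996829, minus strand): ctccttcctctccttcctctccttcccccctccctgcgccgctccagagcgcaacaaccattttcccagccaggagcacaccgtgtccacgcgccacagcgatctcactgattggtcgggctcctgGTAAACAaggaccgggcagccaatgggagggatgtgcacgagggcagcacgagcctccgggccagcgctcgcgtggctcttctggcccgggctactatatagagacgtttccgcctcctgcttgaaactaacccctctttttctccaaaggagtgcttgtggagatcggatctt
BNIP3 (chr10:131981874-131982173, minus strand): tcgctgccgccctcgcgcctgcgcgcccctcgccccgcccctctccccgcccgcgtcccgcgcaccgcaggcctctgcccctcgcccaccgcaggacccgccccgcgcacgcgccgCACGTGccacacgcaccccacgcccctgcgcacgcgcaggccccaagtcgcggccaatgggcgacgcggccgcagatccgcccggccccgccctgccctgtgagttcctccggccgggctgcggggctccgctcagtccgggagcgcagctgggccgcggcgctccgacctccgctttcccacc
In FOXO4 the motif starts at base 274 of the window, at 23 bases from the start, and in TXNIP at base 127, at -124 bases from it. These are RefSeq starts. Counted from the GENCODE 29 gene starts given below, the motif lies at -323 bases in FOXO4 and at -103 bases in TXNIP. The E-box of BNIP3 starts at base 117. CITED2 and CCNG2 also have 1 window each with CACGTG. The short forkhead core AAACA, which is part of GTAAACA, stands in 44.4% of all promoters and is therefore common by letters alone. A match describes letters and is not a bound site. BNIP3 has neither forkhead sequence in its window.

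The values are FPKM, that is, sequenced fragments divided by transcript length and by the total mapped in each library. They summed to between 335673 and 353709 per library, with an approximate depth of 20.65 to 26 M fragments. The libraries numbered 3 stood apart from the rest. On the first principal component, which held 47.9% of the variance, S34F replicate 3 lay at 35.1 and WT replicate 3 at 12.9, and the other 4 libraries between -16.3 and -7.71. The labels do not say what the number marks. All 12 erythroid marker genes read as a check had a mean of at least 1 FPKM, with a median of 551.4 FPKM, led by the embryonic globin HBE1 at 5461 FPKM. Of 12 monocytic and myeloid markers 4 did, with MPO, FCN1, IRF8 and S100A8 at 0 or near 0 in every library. These erythroid levels, in cells labelled as a myeloid line, put the SKM-1 label in question, and the libraries are named here as labelled. The summed erythroid level was 12200 to 13960 FPKM in S34F and 11780 to 12910 in WT, and the summed monocytic level 24.1 to 37.7 and 34.7 to 38.02. Their part in the results was not tested. Gene-level FPKM do not separate mutant from wild-type U2AF1 transcripts, so the labels were not checked that way.

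Differences between the groups were tested with limma on log2(FPKM + 1) over the 10942 genes with a mean of at least 1 FPKM. A gene was called when its fold change on this scale was above 1.5 and its unadjusted p was under 0.05. By this rule 64 genes, 0.585% of those tested, were called, 23 higher (0.21%) and 41 lower (0.375%) in S34F, and 0 genes (0.0%) had an adjusted p under 0.05 (Benjamini-Hochberg), the smallest being 0.0763. At an unadjusted p under 0.05 alone there were 262 genes, or 2.39%. Of the members, 6 of 10 passed the filter on low values, and FOXO1, SESN3, CCNG2 and BCL6 did not. Their values come from the same fit with no filter, over all 31142 genes. None of the 6 was called (0 of 6), and 1 of 6, BNIP3, had an unadjusted p under 0.05. Of the 4 less abundant members 0 did, against 2.9% of all genes with no filter, and 0 of 4 were higher in S34F without overlap, against 3.43% of the genes with means of 0.3 to 1 FPKM. In bulk RNA, fewer cells of a type and less RNA per cell cannot be told apart.

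**Figure D1:**
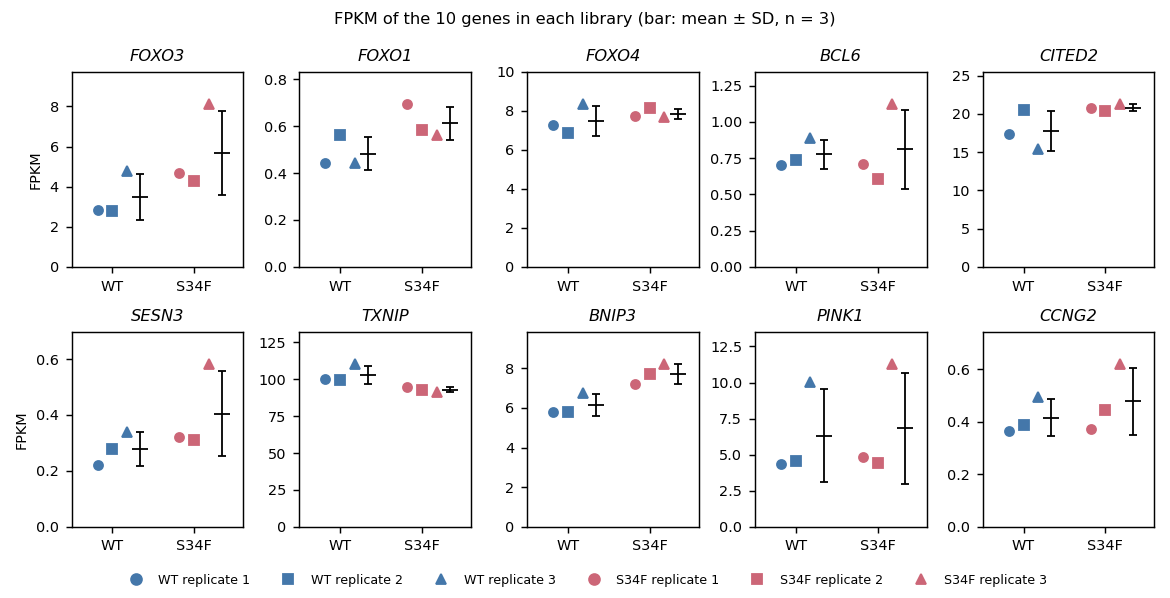
FPKM (vertical axes, from 0) of each of the 10 genes in the 3 WT (blue) and 3 S34F (red) libraries, with the mean ± SD beside them; marker shapes give the replicate number. FOXO3 runs from 2.77 to 4.80 in WT and from 4.27 to 8.10 in S34F, with replicate 3 the highest of each group.

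FOXO3 RNA was higher on average in S34F, with overlapping groups. The ratio of mean FPKM was 1.64 for FOXO3, 1.27 for FOXO1 and 1.05 for FOXO4, and none of the 3 was called. FOXO3 (ENSG00000118689; GENCODE 29 on GRCh38, chr6:108559835-108684774, plus strand), the FOXO factor most studied in blood, had 4.68, 4.27 and 8.10 FPKM in S34F replicates 1, 2 and 3 and 2.85, 2.77 and 4.80 FPKM in WT. WT replicate 3 lay above the first 2 S34F libraries, so the groups overlapped, and in each group replicate 3 was the highest. The means were 5.68 ± 2.10 and 3.47 ± 1.15 FPKM (SD, n = 3). On the log2 scale the difference was 0.56 (SE 0.26, 95% interval -0.05 to 1.18), which is 1.48-fold on that scale. Its limma p was 0.0676 (adjusted p = 0.9999), and the exact permutation test over 3 against 3 libraries gave p = 0.3, where the smallest it can give is 0.1.

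Compared within each replicate number, FOXO3 was higher in S34F in 3 of 3 pairs, by 1.64, 1.54 and 1.69 times. Of all genes tested, 13.3% were higher in 3 of 3 pairs. With replicate number fitted as a block, the unadjusted limma p of FOXO3 was 0.0022 (adjusted p = 0.994), in a fit where 4.05% of genes were under 0.05 and 0.795% were called. The fold on the log2(FPKM + 1) scale stays under 1.5 there, so the gene was still not called, whereas its ratio of mean FPKM is above that limit. Without both libraries numbered 3 the difference was 0.52 and the unadjusted limma p was 0.0019. Without S34F replicate 3 the difference was 0.32, and its p was 0.182. Without WT replicate 3 it was 0.77, its p was 0.029, and FOXO3 was called in that fit, as it was without S34F replicate 2 (0.71, with a p of 0.0437).

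FOXO4 (ENSG00000184481, chrX:71096197-71103535, plus strand), a close relative under the same AKT control, had 7.75, 8.13 and 7.67 FPKM in S34F and 7.26, 6.88 and 8.33 FPKM in WT. The groups overlapped, and the pairs did not share a direction, with ratios of 1.07, 1.18 and 0.92. The log2 difference was 0.06 (SE 0.11, 95% interval -0.19 to 0.32, limma p = 0.577, exact permutation p = 0.5). FOXO1 (ENSG00000150907, chr13:40469953-40666597, minus strand) had 0.692, 0.585 and 0.560 FPKM in S34F and 0.441, 0.562 and 0.442 FPKM in WT. Only WT replicate 2 reached the S34F range, and FOXO1 was higher in 3 of 3 pairs, as were 10.7% of the genes with means of 0.3 to 1 FPKM. The means were 0.613 ± 0.0702 and 0.482 ± 0.0698 FPKM (SD, n = 3), and the log2 difference was 0.12 (SE 0.09, 95% interval -0.10 to 0.34, limma p = 0.219, exact permutation p = 0.2). Per length, FOXO4 had more RNA than FOXO3 in every library except S34F replicate 3, where FOXO3 was at 1.06 times FOXO4.

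Of the summed FPKM of FOXO1, FOXO3, FOXO4 and FOXO6, FOXO3 made up 35.2%, 32.6% and 49.0% in S34F and 26.3%, 26.7% and 34.7% in WT. The means were 38.9% ± 8.80 and 29.3% ± 4.74 (SD, n = 3), and the share was higher in 3 of 3 pairs, with overlapping groups and an exact permutation p of 0.2. No depth can be attached to a share of FPKM.

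FOXO3 shares sequence with another gene. Of its 7670 stretches of 50 bases, 27.8% also occur in transcripts of other genes, 1206 of them in FOXO3B, a near copy. How fragments from the shared stretches were divided is not given in the sources used here, so the levels of the pair are uncertain. FOXO3B had 1.31, 1.61 and 0.587 FPKM in S34F and 1.11, 1.67 and 0.858 FPKM in WT, lowest in replicate 3 of each group, where FOXO3 was highest. Summed, FOXO3 and FOXO3B had 5.997, 5.88 and 8.69 FPKM in S34F and 3.97, 4.44 and 5.66 FPKM in WT. These sums did not overlap between the groups, their ratio was 1.46, and the exact permutation p was 0.1, the smallest possible. Among genes tested singly, 3.66% were higher in S34F without overlap.

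**Figure D2:**
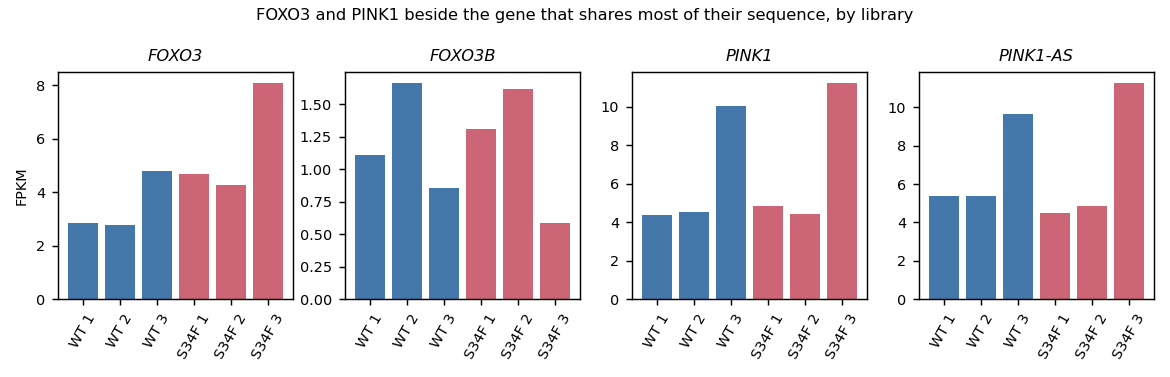
FPKM (vertical axes, from 0) in each of the 6 libraries of FOXO3 and FOXO3B, and of PINK1 and PINK1-AS, the genes that share most sequence with them. FOXO3B is at its lowest where FOXO3 is at its highest, in S34F replicate 3 (0.587 FPKM), and PINK1 and PINK1-AS both stand near 10 or above in the libraries numbered 3.

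Both transcriptional regulators among the targets had overlapping groups. CITED2 (ENSG00000164442, chr6:139371807-139374620, minus strand), which competes for the coactivators CREBBP and EP300, had 20.8, 20.3 and 21.2 FPKM in S34F and 17.4, 20.5 and 15.4 FPKM in WT. The S34F libraries lay within 1 FPKM of each other, and WT replicate 2 fell among them. The means were 20.8 ± 0.447 and 17.7 ± 2.56 FPKM (SD, n = 3), and the log2 difference was 0.22 (SE 0.12, 95% interval -0.07 to 0.52, limma p = 0.115, exact permutation p = 0.2). Without WT replicate 2 it was 0.33, and the limma p was 0.0458. Without WT replicate 3 it was 0.13, with a p of 0.287, and without both libraries numbered 3 it was 0.12, with a p of 0.272. BCL6 (ENSG00000113916, chr3:187721377-187745727, minus strand), a repressor known from germinal centre B cells, had 0.710, 0.603 and 1.12 FPKM in S34F and 0.700, 0.737 and 0.888 FPKM in WT. S34F held both the lowest and the highest library, and the log2 difference was 0.02 (SE 0.14, 95% interval -0.32 to 0.36, limma p = 0.893, exact permutation p = 0.9).

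The stress targets TXNIP and SESN3 pointed in opposite directions and neither passed. TXNIP (ENSG00000265972, chr1:145992435-145996600, minus strand), an inhibitor of thioredoxin and of glucose uptake, was the most abundant member, with 94.8, 93.1 and 91.3 FPKM in S34F and 100.1, 99.2 and 110.1 FPKM in WT. Every S34F library was below every WT library, as in 3.73% of all genes tested, and it was lower in 3 of 3 pairs, as in 12.0%. The means were 93.0 ± 1.74 and 103.1 ± 6.05 FPKM (SD, n = 3). The log2 difference was -0.15 (SE 0.09, 95% interval -0.36 to 0.07, limma p = 0.155, exact permutation p = 0.1). TXNIP is the member, with FOXO4, whose promoter window holds GTAAACA.

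SESN3 (ENSG00000149212, chr11:95165513-95232541, minus strand), a sestrin that restrains mTORC1 and oxidative stress, was the least abundant member, with 0.323, 0.311 and 0.581 FPKM in S34F and 0.220, 0.277 and 0.338 FPKM in WT. WT replicate 3 lay above the first 2 S34F libraries, as in FOXO3. The ratio of means was 1.46. SESN3 was higher in 3 of 3 pairs (1.47, 1.13 and 1.72 times), as were 10.7% of the genes with means of 0.3 to 1 FPKM. The log2 difference was 0.13 (SE 0.10, 95% interval -0.10 to 0.37, limma p = 0.219, exact permutation p = 0.3). Without S34F replicate 3 the log2 difference was 0.04, with a limma p of 0.461. With a pseudocount of 1 FPKM, log2 differences of genes at these levels understate the change in FPKM. A count of 3 fragments would correspond to 0.0152 FPKM on its longest transcript and 0.130 on the median one, so the SESN3 values were above the counting floor, which covers counting error only.

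Of the mitophagy targets, BNIP3 was higher in S34F without overlap and PINK1 followed the replicate number. BNIP3 (ENSG00000176171, chr10:131966455-131982013, minus strand), a mitochondrial receptor that draws the autophagy machinery and a classic target of hypoxia, had 7.22, 7.72 and 8.20 FPKM in S34F and 5.81, 5.81 and 6.78 FPKM in WT. Every S34F library was above every WT library, as in 3.66% of all genes tested. The means were 7.71 ± 0.488 and 6.13 ± 0.560 FPKM (SD, n = 3), a ratio of 1.26. BNIP3 was higher in 3 of 3 pairs (1.24, 1.33 and 1.21 times), as were 13.3% of all genes tested. The log2 difference was 0.29 (SE 0.11, 95% interval 0.03 to 0.55, limma p = 0.033, adjusted p = 0.9999, exact permutation p = 0.1). That 1 of 6 members passed this unadjusted threshold is to be read beside the 0.823% of all genes that were higher at it. Without S34F replicate 2, WT replicate 1 or WT replicate 2 the p was 0.0841, 0.1165 and 0.1164. Without both libraries numbered 3 it was 0.0065, with a difference of 0.31.

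PINK1 (ENSG00000158828, chr1:20633455-20651511, plus strand), the kinase that marks damaged mitochondria for removal, had 4.83, 4.41 and 11.3 FPKM in S34F and 4.39, 4.55 and 10.02 FPKM in WT. The libraries numbered 3 were more than 5 FPKM above the other 4 in both groups, and S34F and WT lay close within each number, at 1.10, 0.97 and 1.12 times. The log2 difference was 0.08 (SE 0.40, 95% interval -0.87 to 1.02, limma p = 0.852, exact permutation p = 0.6), an interval too wide to exclude a change of 1.5-fold. PINK1-AS, on the other strand, overlaps it, and 37.8% of the 50-base stretches of PINK1 occur in other transcripts, most of them in PINK1-AS. PINK1-AS had 4.48, 4.85 and 11.3 FPKM in S34F and 5.39, 5.40 and 9.64 FPKM in WT. Whether the quantification used strand is not given in the sources used here, so the pair cannot be told apart.

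CCNG2 (ENSG00000138764, chr4:77157151-77433388, plus strand), an unusual cyclin that holds cells back from division, had 0.371, 0.444 and 0.618 FPKM in S34F and 0.363, 0.389 and 0.495 FPKM in WT. The groups overlapped, with replicate 3 the highest of each. CCNG2 was higher in 3 of 3 pairs, by 1.02, 1.14 and 1.25 times, as were 10.7% of the genes with means of 0.3 to 1 FPKM. The log2 difference was 0.06 (SE 0.10, 95% interval -0.18 to 0.29, limma p = 0.555, exact permutation p = 0.6).

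**Figure D3:**
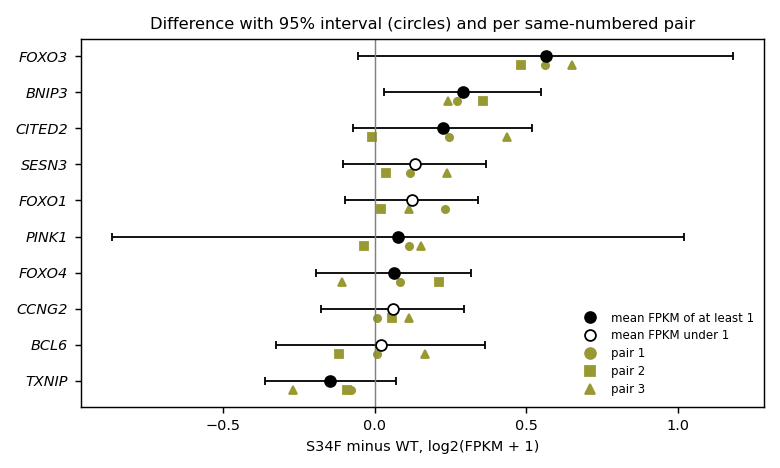
S34F minus WT on the log2(FPKM + 1) scale for the 10 genes (horizontal axis), with the 95% interval of the limma fit; open circles are genes with a mean under 1 FPKM, and small markers are the differences of the 3 same-numbered pairs. Of the 10 intervals, 1, that of BNIP3 (0.03 to 0.55), lies wholly above 0.

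By mean level per length over the 6 libraries, TXNIP (98.1 FPKM) was followed by CITED2 (19.3), FOXO4 (7.67), BNIP3 (6.92), PINK1 (6.58), FOXO3 (4.58), BCL6 (0.793), FOXO1 (0.547), CCNG2 (0.447) and SESN3 (0.342). The ranges over libraries were separate between TXNIP and CITED2, between CITED2 and FOXO4 and between FOXO3 and BCL6. The other neighbours had overlapping ranges. FOXO4 was above BNIP3 in 5 of 6 libraries, and BNIP3 above PINK1 in 4 of 6.

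Over all 6 libraries, SESN3, BNIP3 and CCNG2 tracked FOXO3 more closely than CITED2, TXNIP and FOXO1. The permutation used below ignores the replicate number. With the mean of each number removed, r was 0.85 for CITED2, 0.84 for FOXO1 and -0.91 for TXNIP beside 0.84 for CCNG2. Such an r compares only the 3 pair differences, and those of FOXO3 were all positive and alike (0.56, 0.48 and 0.65). It therefore tends to be large for any gene whose pairs share a direction. It mostly repeats the S34F minus WT difference and cannot decide whether the split holds within the numbers. Correlations were taken on log2(FPKM + 1) over the 6 libraries, for 9 genes against FOXO3, with exact permutation over the 720 pairings and adjustment over all genes of the fit. Of all genes tested, 12.8% had an exact p under 0.05, 6.23% with a positive r. Among the 5 members over 1 FPKM tested against FOXO3, 1 (BNIP3) did, and of the 4 under 1 FPKM, SESN3 and CCNG2 did, against 3.86% positive among genes of 0.3 to 1 FPKM.

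SESN3 was nearest to FOXO3, with Pearson's r = 0.94 (exact permutation p = 0.0056, adjusted p = 0.47) and Spearman's rho = 0.94 (exact permutation p = 0.0167). Without S34F replicate 3 and WT replicate 2, the 2 libraries farthest from the FOXO3 median, r was 1.00 over the remaining 4. BNIP3 had r = 0.89 (exact permutation p = 0.0167, adjusted p = 0.317) and rho = 0.71 (exact permutation p = 0.136), and r was 0.78 without the same 2 libraries. CCNG2 had r = 0.87 (exact permutation p = 0.0306, adjusted p = 0.577) and rho = 0.71 (exact permutation p = 0.136), and r fell to 0.59. All 3 were highest in S34F replicate 3, and WT replicate 1 was the lowest or level with the lowest. No correlation with FOXO3 over all genes had an adjusted p under 0.05, the smallest being 0.207.

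BCL6 had r = 0.75 (exact permutation p = 0.0778) and rho = 0.60 (exact permutation p = 0.242), with r = 0.32 without the 2 libraries. Those 2 hold the highest and the lowest FOXO3 level, so leaving them out narrows its range for every gene. FOXO4 had r = 0.54 (exact permutation p = 0.265) and rho = 0.60 (exact permutation p = 0.242), with r = 0.85 without them. CITED2 had r = 0.24 (exact permutation p = 0.624) and rho = 0.26 (exact permutation p = 0.658), and r = 0.13 without them. FOXO1 had r = 0.24 (exact permutation p = 0.675) and rho = -0.03 (exact permutation p = 1), and r = 0.48 without them. TXNIP had r = -0.37 (exact permutation p = 0.461) and rho = -0.31 (exact permutation p = 0.564), and r = 0.09 without them. PINK1 had r = 0.79 (exact permutation p = 0.05) and rho = 0.83 (exact permutation p = 0.0583), and r = 0.52 without them. Its libraries fell into separate clusters, the 2 numbered 3 and the other 4, which are too few for a correlation within either.

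**Figure D4:**
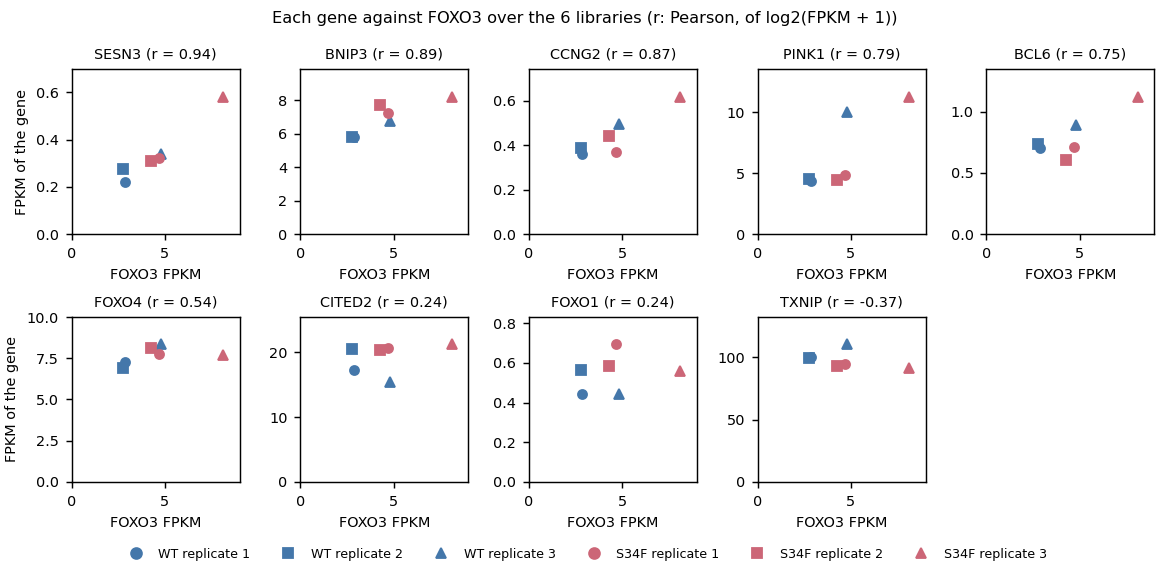
FPKM of each of 9 genes (vertical axes, from 0) against FOXO3 FPKM (horizontal axis), 1 point per library, red for S34F and blue for WT, with the shape giving the replicate number. SESN3, BNIP3 and CCNG2 lie higher where FOXO3 is higher, with S34F replicate 3 at the upper right, whereas TXNIP and FOXO1 do not.

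The members also moved with the replicate number. Replicate 3 was the highest library of both groups for 6 of the 10 members, FOXO3, BCL6, SESN3, BNIP3, PINK1 and CCNG2, as for 21.3% of all genes tested and 21.0% of those with 0.3 to 1 FPKM. After each group's mean was removed, r with FOXO3 was 1.00 for PINK1, 0.94 for BCL6, 0.92 for SESN3, 0.91 for CCNG2 and 0.87 for BNIP3. It was 0.42 for FOXO4, 0.41 for TXNIP, -0.42 for CITED2 and -0.53 for FOXO1. An r of at least 0.8 on these deviations was found for 17.5% of all genes tested and for 15.5% of those with 0.3 to 1 FPKM. With the mean of each replicate number removed in place of the group's, r was 0.96 for BNIP3 and 0.91 for SESN3. All values of that kind rest on 3 pair differences, mostly repeat the S34F minus WT difference and are descriptions. The correlation within 1 group or within the libraries of 1 number has too few libraries to be given. When FOXO3 and FOXO3B were summed, r was 0.95 for SESN3, 0.93 for BNIP3 and 0.85 for CCNG2.

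The genes whose pattern was most like or most unlike that of FOXO3 were taken from the 5649 genes with a mean of at least 5 FPKM. The highest r belonged to ARRDC3 (0.998), RASSF1 (0.991), RPL37P23 (0.988), ZNF574 (0.981) and HSPA5 (0.976). ARRDC3, an arrestin-domain protein of the same family as TXNIP, had 6.41, 6.08 and 8.02 FPKM in S34F and 5.27, 5.32 and 6.42 FPKM in WT, the order of FOXO3 but for a swap between WT replicates 1 and 2. TXNIP itself did not share that order. HSPA5, the endoplasmic reticulum chaperone, had 151.5, 148.3 and 221.3 FPKM in S34F and 121.2, 126.6 and 175.4 FPKM in WT. The lowest r belonged to TNPO2 (-0.990), CMBL (-0.990), CHRAC1 (-0.982), FAH (-0.980) and ARMC6 (-0.979). The exact permutation p of these 10 was 0.0028 to 0.0056, near or at the smallest possible, and the adjusted p was 0.207 to 0.238.

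Beyond the members, a list of 102 symbols of FOXO regulators and targets was read from the same fit, with G6PC in it under both its older and its current symbol. A value was found for 99 genes, 74 passed the filter, and PRKAA2 and FASLG were not analysed here. The list does not separate targets that FOXO factors induce from those they repress, so the medians and correlations below have no expected sign. None of the 74 was called (0 of 74, against 0.585% of all genes). At an unadjusted p under 0.05 there was 1, DDIT4. The 74 had a median log2 difference of 0.08, with 52 higher and 22 lower in S34F, against a median of 0.01 over all genes tested, of which 5973 were higher and 4969 lower. Groups did not overlap for 5 of the 74 (MDM2, CSNK1A1, CAT, ZFP36 and DDIT4), against 7.38% of all genes.

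The genes listed for the PI3K and AKT input showed no called gene among 12 tested, with a median log2 difference of 0.05. They mix parts that promote this input with others, such as TSC1 and TSC2, that do not, so the median does not measure its strength. The most abundant of these genes were PIK3R2, a regulatory subunit of PI3K (12.98 ± 2.25 FPKM in S34F and 12.72 ± 1.96 in WT, SD, n = 3), and the kinase MTOR (10.8 ± 0.475 and 10.4 ± 0.311). PDPK1, the kinase that activates AKT, had 3.13, 2.98 and 7.13 FPKM in S34F and 3.04, 1.602 and 3.84 FPKM in WT, with r = 0.91 to FOXO3 (exact permutation p = 0.0056). Its log2 difference was 0.46 (limma p = 0.215, exact permutation p = 0.5), and the limma p was 0.0405 with the replicate block. IRS2, the insulin receptor substrate, had r = 0.87 (exact permutation p = 0.0278) and rho = 0.77 (exact permutation p = 0.103). Among 25 other regulators the median was 0.10. The coactivators CREBBP (r = 0.95, exact permutation p = 0.0028) and KAT2B (r = 0.90, exact permutation p = 0.025) also had a positive r with FOXO3. By rank, CREBBP had rho = 0.94 (exact permutation p = 0.0167) and KAT2B rho = 0.71 (exact permutation p = 0.136). YWHAG and YWHAQ, cytoplasmic anchors of phosphorylated FOXO proteins, had means of 96.3 ± 8.61 and 84.7 ± 3.31 FPKM in S34F and 97.8 ± 7.06 and 74.0 ± 12.4 FPKM in WT (SD, n = 3).

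Among 11 cell cycle targets the median log2 difference was 0.09. GADD45B, a stress sensor of the cell cycle, had 1.94, 1.91 and 4.93 FPKM in S34F and 1.76, 1.76 and 2.54 FPKM in WT, with r = 0.90 (exact permutation p = 0.0028). RBL2, a pocket protein that holds cells in quiescence, had r = -0.96 (exact permutation p = 0.0139) and rho = -0.77 (exact permutation p = 0.103). GADD45A and CCNB1, the most abundant of these genes, had log2 differences of 0.09 and -0.01. The cyclin-dependent kinase inhibitors CDKN1A and CDKN1B had log2 differences of 0.62 (limma p = 0.078, exact permutation p = 0.2) and 0.16 (limma p = 0.32, exact permutation p = 0.5). CDKN1A reached 28.1 FPKM in S34F replicate 3 against 8.32 to 14.9 in the other 5 libraries.

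Among 5 cell death targets the median was 0.02. BCL2L11, the BH3-only protein BIM and among the best known FOXO3 targets, had 6.16, 5.75 and 1.32 FPKM in S34F and 7.13, 7.11 and 5.43 FPKM in WT. It was lower in S34F in 3 of 3 pairs, as were 12.0% of all genes tested. BCL2L11 ran against FOXO3, with r = -0.90 (exact permutation p = 0.0083) and rho = -0.89 (exact permutation p = 0.0333). Its log2 difference was -0.64 (limma p = 0.174, exact permutation p = 0.3), and S34F replicate 3 lay far below the other libraries. BBC3 and TRADD, the most abundant of this role, had differences of 0.02 and -0.17.

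Among 14 stress and metabolism targets the median was 0.07. DDIT4, an inhibitor of mTORC1 induced by stress, had 39.5, 43.2 and 51.4 FPKM in S34F and 68.6, 69.6 and 57.8 FPKM in WT. Each S34F library lay below each WT library, as in 3.73% of all genes tested. The log2 difference was -0.54 (SE 0.14, limma p = 0.0055, adjusted p = 0.9999, exact permutation p = 0.1), 0.687-fold on that scale and therefore short of the fold limit. It passed that limit, and was called, without S34F replicate 3, without WT replicate 3 and without both. An unadjusted p under 0.05 with a lower level was found for 1.57% of all genes. SOD2, the mitochondrial superoxide dismutase, had r = 0.85 (exact permutation p = 0.0278), rho = 0.83 (exact permutation p = 0.0583) and a log2 difference of 0.08. The peroxiredoxin PRDX5 had 572.7 ± 102.7 FPKM in S34F and 573.0 ± 116.4 in WT (SD, n = 3). Among 7 blood cell and signalling targets the median was 0.20. ID1 had a negative r with FOXO3 (r = -0.88, exact permutation p = 0.0042). YPEL3 had r = 0.86 (exact permutation p = 0.0333) and rho = 0.83 (exact permutation p = 0.0583). JUNB had a log2 difference of 0.20 (limma p = 0.324, exact permutation p = 0.6).

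Over the whole list, 7 genes had a positive and 3 a negative correlation with FOXO3 at an exact p under 0.05, against 6.23% and 6.57% of all genes. Of these genes, by Spearman's rho, the exact permutation p was 0.0167 to 0.0333 for CREBBP, GADD45B, PDPK1, BCL2L11 and ID1. It was 0.0583 to 0.136 for KAT2B, IRS2, RBL2, SOD2 and YPEL3. Without S34F replicate 3 and WT replicate 2, r was 0.31 for KAT2B, 0.39 for SOD2 and 0.50 for PDPK1, and 0.58 to 0.90 in size for the others. CREBBP, GADD45B, PDPK1, KAT2B, IRS2 and SOD2 were each highest in S34F replicate 3, and RBL2, BCL2L11 and ID1 were lowest there. These 9 correlations share the library that stood farthest apart on the first principal component. By rank, PIK3CB and XPO1, which the Pearson cut left out, also had an exact permutation p of 0.0167, both with rho = -0.94. Their Pearson's r was -0.57 and -0.71 (exact permutation p = 0.239 and 0.104). Of all genes tested, 8.1% had an exact p under 0.05 by rank.

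**Figure D5:**
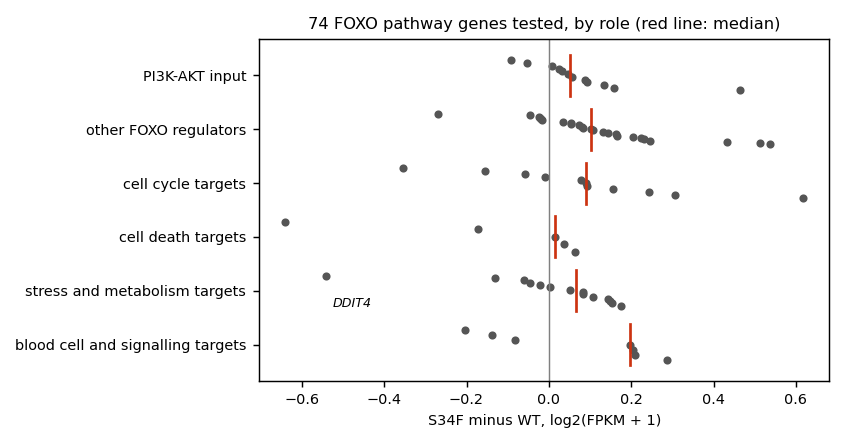
S34F minus WT on the log2(FPKM + 1) scale (horizontal axis) for the 74 FOXO pathway genes tested, 1 point per gene, in 6 rows by role, with red lines for the medians. The medians lie between 0.02 and 0.20, and DDIT4 (-0.54) is the gene with an unadjusted p under 0.05.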

How the data were processed

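RNA from 6 samples labelled SKM-1 was sequenced on an Illumina X10, 3 per group, grouped by the U2AF1 form in the titles. The authors deposited FPKM per gene and library. The submitters' processing notes name StringTie and edgeR. The aligner, genome build and annotation are not given in the sources used here, and the gene identifiers were matched to GENCODE 29 (31002 of 31142). All columns of per-library FPKM were used. The authors' own fold change, p-value and q-value per gene were not used. Promoter windows are RefSeq's. The alternatives were other scalings, a pseudocount of 0.1, no filter, no variance trend, the replicate block and each library left out.

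limma 3.58.1 in R 4.3.3, with empirical Bayes and a variance trend, was fitted on log2(FPKM + 1) over all genes with a mean of at least 1 FPKM, with no block, and p-values were adjusted by the Benjamini-Hochberg method. The fold and p limits for a call are those of the study, but the fold was taken on the log2(FPKM + 1) scale, where a low gene lies closer to 1 than by the ratio of mean FPKM. The exact permutation tests, which were two-sided, were run in Python 3.11.15 (scipy 1.17.1, pandas 2.3.3, numpy 2.4.6), and plots were drawn with matplotlib 3.10.9. The scripts were tested on simulated data. The approximate depth was read from the FPKM of single-exon genes, and no counts could be recovered.

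Deviations of same-numbered libraries from their group means correlated across genes at 0.212, 0.174 and 0.380 for numbers 1, 2 and 3, all over 0.1, so the numbers were taken to pair the libraries. The study also speaks of 3 pairs of samples, without saying which library belongs to which pair. S34F replicate 2 with WT replicate 1 gave 0.197 and S34F replicate 1 with WT replicate 2 gave 0.134. These are also over 0.1, so the cut tells the numbers 1 and 2 apart little. The main fit and the exact permutation tests took no account of the pairing.

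The members and lists were chosen with earlier results of these data known. The genes named are all members, and of the pathway list the genes with an unadjusted limma p under 0.05, up to 10 correlated with FOXO3 by size of r, the 2 most abundant per role, and CDKN1A, CDKN1B and BCL2L11. Of all genes of at least 5 FPKM, the 5 with the highest and the 5 with the lowest r with FOXO3 are named. MDM2, CSNK1A1, CAT, ZFP36, PIK3CB and XPO1 were named after their values were seen.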

Additional observations from a re-analysis of the deposited data

How the results depend on the processing

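The count of 64 genes called became 122 with a pseudocount of 0.1, 183 without both libraries numbered 3, and 0 at an adjusted p under 0.05. It ranged from 66 to 180 when each library was left out, with 180 without S34F replicate 3. At an adjusted p the count of 0 became 1 without S34F replicate 1, 3 without WT replicate 3 and 8 without both libraries numbered 3. The replicate block gave 87 genes called, 443 in place of 262 with an unadjusted p under 0.05, and 0 after adjustment. Among the members and pathway genes tested it took FOXO3 and PDPK1 under an unadjusted p of 0.05 and changed no other side of that threshold. Of the members, 0 were called, and 0 to 1 when each library was left out, the 1 being FOXO3 without S34F replicate 2 or WT replicate 3. Of the pathway genes 0 were called, 0 to 2 when each library was left out (CDKN1A and STK4 without S34F replicate 2, DDIT4 without either library numbered 3), and 2 without both libraries numbered 3 (DDIT4 and BTG1). The 1 member of at least 1 FPKM correlated with FOXO3 became 2 on linear FPKM (with PINK1), 0 by Spearman's rho, 3 with no filter (with SESN3 and CCNG2, an alternative chosen after seeing the data) and 0 at an adjusted p under 0.05. Leaving out each library turned the sign of 3 log2 differences: BCL6 ranged from -0.10 to 0.10, PINK1 from -0.30 to 0.41 and CCNG2 from -0.0076 to 0.11. For the members' log2 differences, 92 of 106 alternatives with a p kept the direction and the side of the threshold, and 2 of 2 with no p kept the direction. For the correlations these were 26 of 29 and 32 of 36. The causes were not tested.

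With 3 libraries against 3, exact permutation cannot go below p = 0.1. A gene at the level of SESN3 or CCNG2 is limited further by the fragments behind it, and FPKM carry no count for an interval. The alternatives that sum FOXO3 with FOXO3B and PINK1 with PINK1-AS, and those that remove the means of the replicate numbers, were chosen after seeing the data.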
